A study of Mus musculus with 5 samples.

Results

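The 10 genes described here encode the chaperones and oxidoreductases that fold secretory proteins inside the endoplasmic reticulum (ER), and all 10 were measured among the 6631 genes that the 5 files share. They were chosen by name: Hspa5, Hsp90b1, Dnajc3, Sdf2l1, Pdia3, Pdia4, Pdia6, Ero1lb, Calr and Canx. The data are inDrop libraries of dissociated pancreatic islets of C57BL/6 mice, a droplet method in which every captured RNA gets its own molecular barcode, counted as a unique molecular identifier (UMI). There were 2 libraries of postpartum mice, 2 of pregnant mice and 1 of non-pregnant mice, named postpartum 1, postpartum 2, pregnant 1, pregnant 2 and non-pregnant below. The labels give no age, day of gestation or day after birth, no treatment, and no number of mice behind a library. A p-value here therefore rests on spread between libraries, which may be technical. In the main limma fits of states, and of the somatostatin and pancreatic polypeptide classes, that spread was set by all genes of like level. It was not that of the gene itself.

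Proinsulin is one of the most abundant products of the beta cell and must form disulfide bonds in the ER before it can be packed into granules. Newly made chains are held by Hspa5 (BiP), the Hsp70 of the ER, and by Hsp90b1 (Grp94), its Hsp90, while Pdia enzymes and Ero1 oxidases form the disulfide bonds and calnexin and calreticulin hold glycosylated chains. When unfolded chains accumulate, the sensors Atf6, Ern1 (Ire1) and Eif2ak3 (Perk) raise transcription of this machinery in the unfolded protein response. Atf6 and the factor NF-Y are known to act through the ER stress response element (ERSE), a CCAAT box and a CCACG box set 9 bases apart.

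The element is shown first because it is the sequence feature that most of these genes share. It was searched as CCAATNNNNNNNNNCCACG on both strands of the 250 bases upstream of each RefSeq start (GRCm38.p6), and all 10 genes were matched, Ero1lb under its current symbol Ero1b. An exact match was present in 7 of the 10 genes, against 37 of 32851 RefSeq mouse promoters (0.113%) and 11 of the 7007 promoters of genes shared by the files. Those 11 promoters belonged to 11 genes, of which 7 are the genes described here and 4 are Alg12, Derl3, Hnrnpa3 and Syvn1. The element was first defined on promoters of this family, so the match is a description and not independent evidence. Read in the direction of the element, the exact matches were as follows, with capitals on the CCAAT and CCACG boxes.
Hspa5: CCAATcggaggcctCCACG
Hsp90b1, distal: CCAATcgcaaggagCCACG
Hsp90b1, proximal: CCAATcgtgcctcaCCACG
Dnajc3: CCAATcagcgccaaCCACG
Pdia6: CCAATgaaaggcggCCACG
Ero1lb: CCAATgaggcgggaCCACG
Calr: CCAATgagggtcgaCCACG
Canx: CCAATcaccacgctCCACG

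Pdia3 and Pdia4 had no exact match but had 1 copy each with 1 letter of CCACG changed, a form found in 264 RefSeq promoters (0.804%). The copies are shown with the changed letter in lower case, because they mark where both genes part from the others.
Pdia3: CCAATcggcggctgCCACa
Pdia4: CCAATcacgggctgCCACt

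Sdf2l1 had neither form in this window. Hsp90b1 held, beside its 2 exact copies, 1 copy with a changed letter. All 10 upstream regions held at least 1 CCAAT box, against 33.8% of RefSeq promoters. The shorter core TGACGTG, which Atf6 and Xbp1 bind, occurred only in Hspa5 among the 10, against 1.65% of RefSeq promoters. None held the compact ERSE-II form (ATTGGNCCACG). A missing match says only that these letters are not in this window.

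The upstream regions of 3 genes are given whole, each running to the base before the start and with the element in capitals. Hspa5 (chr2:34771840-34772089, plus strand) and Hsp90b1 (chr10:86705445-86705694, minus strand) are well-known targets of the response, and Ero1lb (chr13:12565633-12565882, plus strand) is the gene that differed most between islet cell classes below.
Hspa5: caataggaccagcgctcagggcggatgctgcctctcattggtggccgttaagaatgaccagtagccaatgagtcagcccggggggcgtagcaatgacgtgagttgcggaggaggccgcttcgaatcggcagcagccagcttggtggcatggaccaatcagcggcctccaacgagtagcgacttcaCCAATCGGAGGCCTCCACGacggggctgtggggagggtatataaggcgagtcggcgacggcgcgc
Hsp90b1: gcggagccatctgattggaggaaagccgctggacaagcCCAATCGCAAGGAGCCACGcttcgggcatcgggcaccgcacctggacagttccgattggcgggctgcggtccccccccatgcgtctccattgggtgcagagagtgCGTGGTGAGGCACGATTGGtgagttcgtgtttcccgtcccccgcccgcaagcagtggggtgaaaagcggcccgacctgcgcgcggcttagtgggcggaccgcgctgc
Ero1lb: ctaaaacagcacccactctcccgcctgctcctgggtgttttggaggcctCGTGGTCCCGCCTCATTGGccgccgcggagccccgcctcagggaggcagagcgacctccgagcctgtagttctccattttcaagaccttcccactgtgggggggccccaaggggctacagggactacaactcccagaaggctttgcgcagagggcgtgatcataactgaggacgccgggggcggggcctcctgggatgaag

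The element of Hspa5 lay 65 to 47 bases before the start, just ahead of the TATA box, and that of Ero1lb lay 201 to 183 bases before it in the opposite orientation. In the other genes the exact copies began between 212 and 98 bases before the start.

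**Figure D1:**
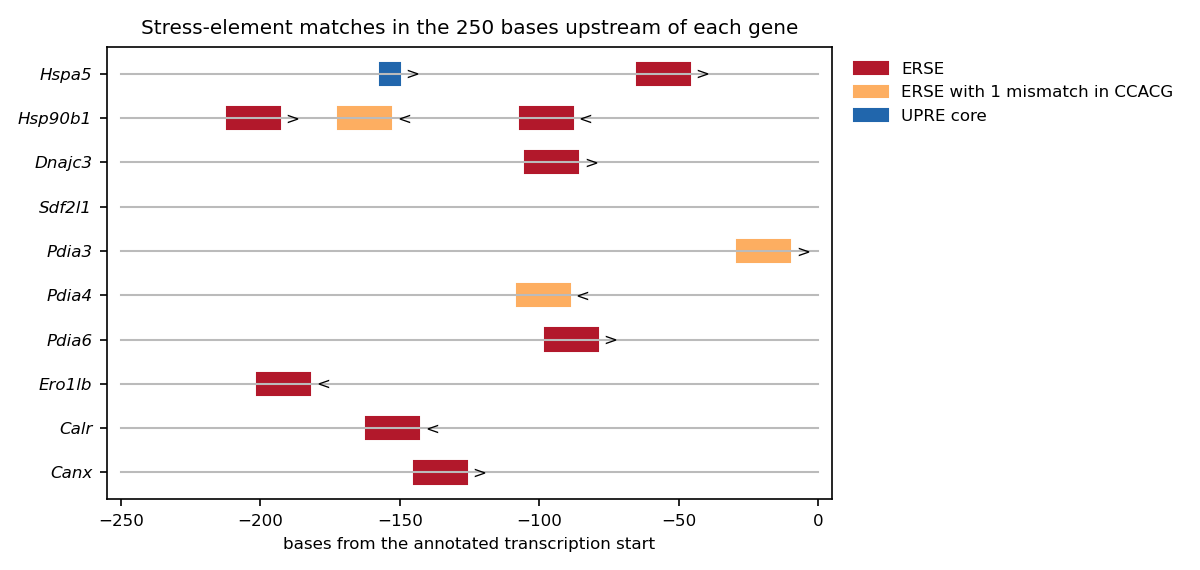
Position of stress-element matches in the 250 bases upstream of each of the 10 genes; the x axis is the distance in bases from the annotated transcription start, red boxes are exact ERSE copies, orange boxes are copies with 1 changed letter in CCACG, the blue box is the TGACGTG core, and arrowheads give the orientation. Exact copies stand in 7 of the 10 rows, and the row of Sdf2l1 is empty.

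Cells were classed by the hormone with the most UMIs, taking Ins1 and Ins2 together, Gcg, Sst and Ppy. In the order postpartum 1, postpartum 2, pregnant 1, pregnant 2 and non-pregnant, the insulin class held 402, 896, 1773, 121 and 680 cells. The same classes held 39381, 194209, 526472, 6880 and 1088813 UMIs of genes other than hormones, and levels below are CPM, counts scaled to the sum of these UMIs, pooled over the cells of a class in 1 library. In the insulin class 7 non-hormone beta cell markers summed to 4098 to 9012 CPM over the 5 libraries, against 0 to 2282 CPM in the glucagon class. The non-pregnant file was made differently from the other 4 and its group has 1 library, so state and file cannot be told apart there. Pregnant 2 stood apart: only 1193 features were detected in it, against 6070 to 27309 elsewhere, and its median cell had 89 UMIs, against 236 to 2553. Its counts also sat in few cells: 20 of its 22 Hspa5 UMIs and 18 of its 20 Ero1lb UMIs in the insulin class came from 1 cell each. A detected non-hormone gene held 5.63 UMIs per cell on average in pregnant 2, against 1.19 to 1.81 elsewhere, and whether its counts are single molecules was not tested. Results that include it are therefore also given without it.

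Pooled levels of the core chaperones were higher in insulin-class cells of both postpartum libraries than in the other 3 libraries. Against pregnant 2 only Hspa5 had a 95% Poisson interval there below both postpartum values. That interval takes UMIs as independent, yet 20 of the 22 Hspa5 UMIs came from 1 cell, so it understates the error. Hspa5 had 7897 and 6838 CPM in the postpartum libraries, 2963 and 3198 CPM in the pregnant libraries and 3312 CPM in the non-pregnant library. The postpartum values were 2.38 and 2.06 times the non-pregnant value, and the pregnant values were 0.895 and 0.966 times it. Hsp90b1 had 2514 and 3136 CPM in the postpartum libraries, 1269 and 2035 CPM in the pregnant libraries and 1288 CPM in the non-pregnant library. In both genes both postpartum libraries were above the other 3 libraries, as was the case for 20.2% of genes tested. Pregnant 1 lay close to the non-pregnant library in both genes. The 14 Hsp90b1 UMIs of pregnant 2 have a 95% Poisson interval that reaches 3414 CPM, above both postpartum values. Dnajc3 (p58IPK), a co-chaperone of Hspa5 that also restrains the kinase Eif2ak3, had 1092 and 1056 CPM in the postpartum libraries, 363 and 727 CPM in the pregnant libraries and 532 CPM in the non-pregnant library. The pregnant 2 value of Dnajc3 rests on 5 UMIs, all from 1 cell.

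Among the oxidoreductases the pattern was less uniform. Ero1lb, the Ero1 oxidase that reoxidises Pdia enzymes and is enriched in the pancreas, had 2971 and 3012 CPM in the postpartum libraries, 1176 and 2907 CPM in the pregnant libraries and 829 CPM in the non-pregnant library. The postpartum libraries were nearly equal, the pregnant libraries were not, and the gap between pregnant 2 and the postpartum libraries was small. Pdia6, a disulfide isomerase that works with Hspa5, had 2590 and 1962 CPM in the postpartum libraries, 1117 and 3924 CPM in the pregnant libraries and 1222 CPM in the non-pregnant library. Here pregnant 2 was the highest library, with 19 of its 27 UMIs in 1 cell. Pdia3 (ERp57), the isomerase that serves calnexin and calreticulin, had 990 and 803 CPM in the postpartum libraries, 589 and 727 CPM in the pregnant libraries and 518 CPM in the non-pregnant library. Pdia4 (ERp72) was low throughout, with 279 and 164.8 CPM in the postpartum libraries, 104 and 145 CPM in the pregnant libraries and 181 CPM in the non-pregnant library.

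The lectin chaperones and Sdf2l1 had other patterns. Calreticulin (Calr) had 2235 and 1524 CPM in the postpartum libraries, 2086 and 4942 CPM in the pregnant libraries and 1906 CPM in the non-pregnant library. Calnexin (Canx) had 914 and 597 CPM in the postpartum libraries, 615 and 436 CPM in the pregnant libraries and 623 CPM in the non-pregnant library. For both genes the postpartum and the other libraries overlapped. Sdf2l1, a partner of the Hspa5 co-chaperones, was highest in the non-pregnant library, with 203 and 139 CPM in the postpartum libraries, 179 CPM in pregnant 1 and 362 CPM in the non-pregnant library. It had 0 UMIs in pregnant 2, where 3 counts would be 436 CPM.

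**Figure D2:**
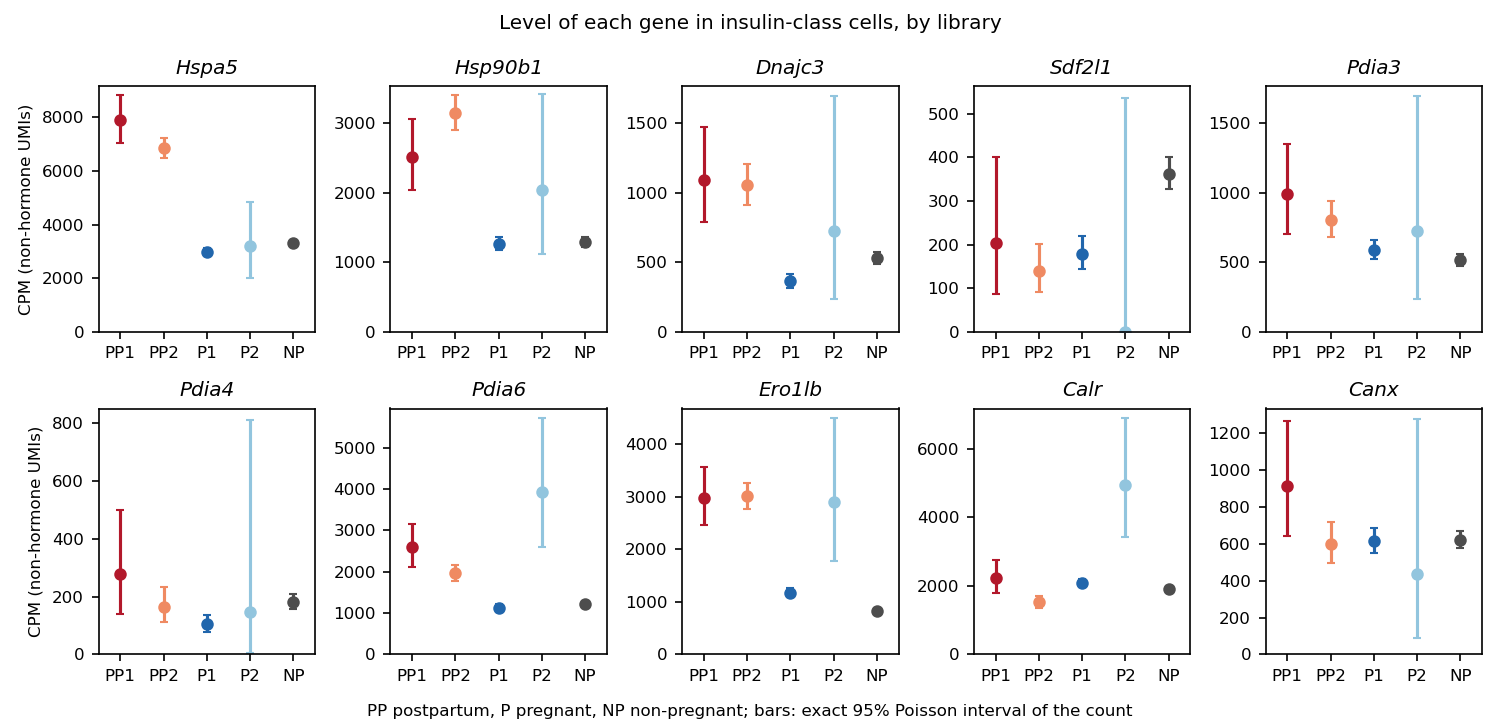
Level of each of the 10 genes in insulin-class cells, in CPM of non-hormone UMIs, for postpartum 1 and 2 (PP1, PP2), pregnant 1 and 2 (P1, P2) and the non-pregnant library (NP); bars are exact 95% Poisson intervals of the count and cover counting error only. Hspa5 sits at 7897 and 6838 CPM in the postpartum libraries and between 2963 and 3312 CPM in the other 3.

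In 6 of the 10 genes both postpartum libraries were above both pregnant libraries, namely Hspa5, Hsp90b1, Dnajc3, Pdia3, Pdia4 and Ero1lb. The pregnant 2 value of Pdia4 is 1 UMI and both postpartum values of that gene lie below the 436 CPM of 3 counts there, so its place in this count cannot be told at this depth. The same held for 556 of the 2199 genes tested (25.3%). In 5 of the 10, the same list without Pdia4, both postpartum libraries were above the other 3 libraries, against 20.2% of genes. The 95% Poisson intervals of Hsp90b1, Dnajc3, Pdia3 and Ero1lb in pregnant 2 reached above both postpartum values. Of these 5 genes only Hspa5 had an interval there below both postpartum values. Its 22 UMIs came from 2 cells, 20 of them from 1 cell, so the interval understates its sampling error.

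The fit over all 5 libraries called none of the 10 genes between states (limma on log2 of CPM + 100, Benjamini-Hochberg adjusted p under 0.05, two-sided). For postpartum minus pregnant it called 2 of 2199 genes (0.091%), with 87 genes at an unadjusted p under 0.05, while edgeR called 1 gene and DESeq2 called 5, none of them among the 10. Hspa5 came nearest, with a log2 difference of 1.23 ± 0.35 (SE) and an adjusted p of 0.161 by limma. The log2 differences of the 10 had a median of 0.58, beside 0.55 for all genes, and 9 of the 10 were above 0. For postpartum minus non-pregnant 7 genes were called (0.318%), with 39 at an unadjusted p under 0.05, and the 10 had a median of 0.76, beside -0.01 for all genes. For pregnant minus non-pregnant 3 genes were called (0.136%), with 41 at an unadjusted p under 0.05, and the 10 had a median of 0.13, beside -0.57 for all genes. In these 3 comparisons DESeq2 and edgeR likewise called 0 of the 10 genes. The comparisons share libraries and are not independent.

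Without pregnant 2 the standard errors were smaller and 2 of the 10 genes, Hspa5 and Ero1lb, were called in at least 1 comparison. Hspa5 rose in the postpartum libraries against pregnant 1, by 1.28 ± 0.29 on the log2 scale (limma, adjusted p = 0.00131), in a fit that called 64 of 2460 genes (2.6%). Ero1lb was 1.28 ± 0.40 higher with a limma adjusted p of 0.0513, Dnajc3 1.34 ± 0.46 higher with 0.0973, and Hsp90b1 1.09 ± 0.39 higher with 0.136, all short of the threshold. Against the non-pregnant library Hspa5 rose by 1.13 ± 0.29 (limma, adjusted p = 0.00389) and Ero1lb by 1.73 ± 0.40 (limma, adjusted p = 0.000524), in a fit that called 159 of 2460 genes (6.46%). In this fit pregnant 1 and the non-pregnant library have no replicate and are assumed to vary like the postpartum pair. None of the 10 genes was called between pregnant 1 and the non-pregnant library, where the 10 log2 differences lay between -0.73 for Sdf2l1 and 0.46 for Ero1lb.

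**Figure D3:**
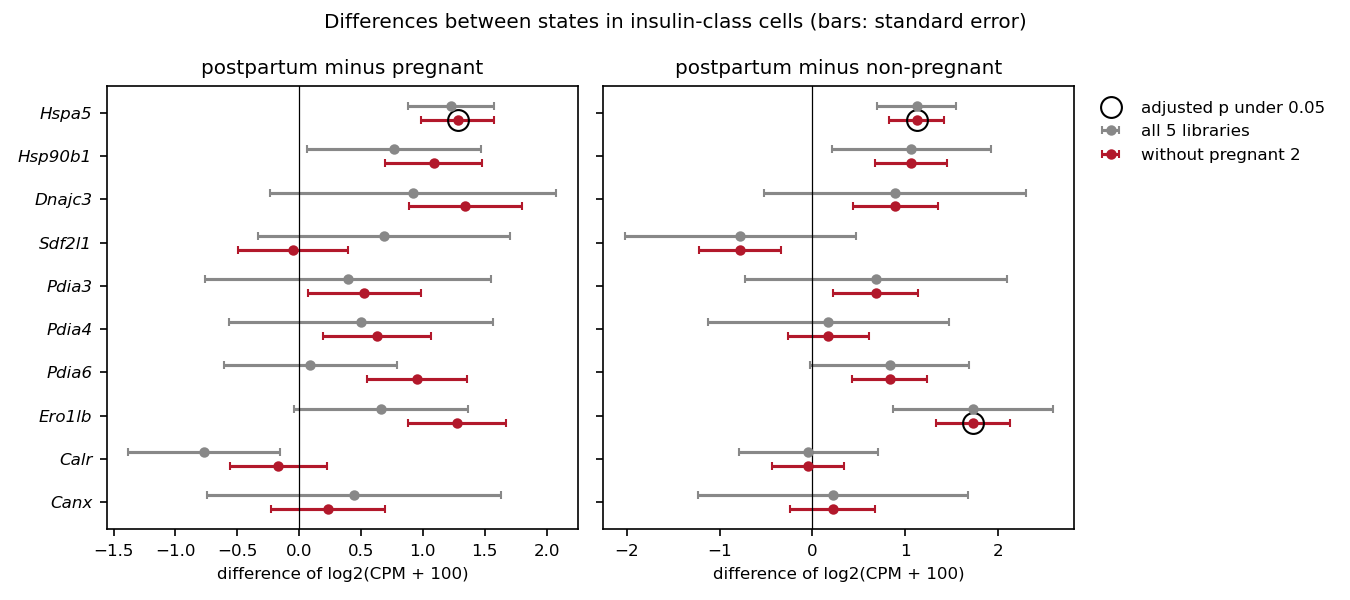
Difference of log2(CPM + 100) between states in insulin-class cells with its standard error, for postpartum minus pregnant (left) and postpartum minus non-pregnant (right); grey points use all 5 libraries, red points leave out pregnant 2, and rings mark a limma adjusted p under 0.05. Rings fall on Hspa5 in both panels and on Ero1lb in the right panel, only in the fits without pregnant 2.

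The scale of these values matters. Insulin RNA took more of the cells in the postpartum libraries, where its median share per insulin-class cell was 51.3% and 61.7% of UMIs, against 35.1% and 28.8% in the pregnant libraries and 28.8% in the non-pregnant library. As a share of all UMIs, hormones included, Hspa5 took 0.315% and 0.236% in the postpartum libraries, 0.161% and 0.199% in the pregnant libraries and 0.201% in the non-pregnant library. On that scale its postpartum minus pregnant log2 difference was 0.58 ± 0.36 (limma, adjusted p = 0.784) and 4 of the 8 genes that passed the filter on low values were above 0, while the median of all genes was -0.15.

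Immediate early RNA was also higher in both postpartum libraries, while the sums of cytosolic heat shock genes and of acinar genes overlapped between postpartum and pregnant libraries. Summed over 15 measured immediate early genes, which dissociation of tissue is known to induce, insulin-class cells held 11401 and 12672 CPM in the postpartum libraries, 2006 and 2471 CPM in the pregnant libraries and 2494 CPM in the non-pregnant library. Over 14 cytosolic heat shock genes the sums were 6780 and 8439 CPM in the postpartum libraries, 4289 and 6977 CPM in the pregnant libraries and 4847 CPM in the non-pregnant library. Their part in the higher Hspa5 level was not tested. Over 12 acinar genes the sums were 3098 and 2538 CPM in the postpartum libraries, 36 and 10610 CPM in the pregnant libraries and 863 CPM in the non-pregnant library, with 0 of the 12 genes at 0 UMIs in the postpartum and non-pregnant libraries and 7 at 0 in each pregnant library. In the 4 libraries other than pregnant 1 most of that acinar RNA sat in 1 to 4 cells in which it made up at least 5% of non-hormone UMIs. Without those cells Hspa5 had 7926 and 6864 CPM in the postpartum libraries, 2963 and 3235 CPM in the pregnant libraries and 3314 CPM in the non-pregnant library.

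In the glucagon class too, Hspa5 was highest in the postpartum libraries. That class had 4249 and 3127 CPM of Hspa5 in the postpartum libraries, 1963 CPM in pregnant 1 and 1833 CPM in the non-pregnant library, and 0 UMIs in pregnant 2, where 3 counts would be 2164 CPM. Hsp90b1 in that class had 2125 and 1892 CPM in the postpartum libraries, 954 and 2164 CPM in the pregnant libraries and 1271 CPM in the non-pregnant library, the pregnant 2 value resting on 3 UMIs. Immediate early genes summed to 15187 and 14646 CPM in glucagon-class cells of the postpartum libraries, 3054 and 722 CPM in the pregnant libraries and 4350 CPM in the non-pregnant library. In the somatostatin class Hspa5 had 6645 and 2931 CPM in the postpartum libraries, the first on 10 UMIs. Pregnant 1 had 5617 CPM there and the non-pregnant library 3120 CPM, so postpartum 2 was lowest. Pancreatic polypeptide class values, in that order of libraries, were 6542 and 4650 CPM, 3160 CPM and 1938 CPM, the first on 7 UMIs. State comparisons in these classes were not tested.

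The genes around these 10 in the ER were counted from lists. In postpartum minus pregnant, over all 5 libraries, limma called 0 genes in each of the 6 lists. Of other folding factors and oxidoreductases 9 of 15 tested were higher (median log2 difference 0.55), of ER-associated degradation 11 of 15 (0.21), of translocation, signal peptidase and glycosylation 25 of 29 (0.80), of stress sensors and transcription factors 7 of 10 (0.73), of cytosolic heat shock proteins 11 of 13 (0.75) and of immediate early genes 14 of 14 (2.03), beside a median of 0.55 over all genes. Among list genes with at least 50 UMIs, the 2 highest and 2 lowest other folding factors were Manf (2.25 ± 1.16), a secreted ER stress protein, Fkbp11 (1.68 ± 0.85), a peptidyl-prolyl isomerase, Qsox1 (-1.13 ± 1.23), a sulfhydryl oxidase, and Dnajb11 (-1.58 ± 1.24), a co-chaperone of Hspa5. In the degradation list they were Ubxn4 (2.05 ± 1.22), Edem3 (0.86 ± 0.85), Herpud1 (-0.70 ± 1.24) and Derl2 (-1.70 ± 1.18). In the translocation list they were Tram1 (2.38 ± 1.14), Srpr (2.33 ± 1.23), the signal recognition particle receptor, Sec11c (-1.61 ± 1.21) and Dad1 (-2.54 ± 1.06), a subunit of the oligosaccharyltransferase. Stress factors ran between Ppp1r15a (2.21 ± 1.07), which restores translation after stress, and Atf4 (1.93 ± 1.23) at the top and Nupr1 (-0.22 ± 0.93) and Chac1 (-0.91 ± 1.14) at the bottom. Hspa1a (2.21 ± 0.91), Dnajb1 (1.64 ± 0.92), Hsp90aa1 (-0.21 ± 0.88) and Hsph1 (-0.51 ± 1.21) bounded the cytosolic heat shock list, and Jun (3.84 ± 1.24), Fos (3.68 ± 1.24), Jund (0.60 ± 1.07) and Btg2 (0.05 ± 1.13) the immediate early list.

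Without pregnant 2, 10 of 17 other folding factors were higher in postpartum minus pregnant (median log2 difference 0.04). So were 5 of 15 degradation genes (-0.23) and 18 of 31 translocation genes (0.08). Of immediate early genes 13 of 14 were higher (1.71), of cytosolic heat shock genes 12 of 13 (0.58) and of stress sensors and factors 5 of 9 (0.23). The median over all genes was -0.03. Among the stress genes Ppp1r15a was 1.78 ± 0.45 and Atf3 1.73 ± 0.51 higher, and Atf3 is also in the immediate early list. Fkbp11 was the one other folding factor called against the non-pregnant library, at 1.42 ± 0.46 (limma, adjusted p = 0.0349). In that comparison 5 of 9 stress sensors and factors were higher in the postpartum libraries (median 0.18), and 13 of 14 immediate early genes (1.56). Cytosolic heat shock genes were higher in 10 of 13, translocation genes in 18 of 31, other folding factors in 9 of 17 and degradation genes in 7 of 15. Among the stress genes Ppp1r15a (1.64 ± 0.45) and Atf3 (1.65 ± 0.51) were higher and Cebpb (-1.70 ± 0.44) and Nupr1 (-1.44 ± 0.44) lower in the postpartum libraries. Ppp1r15a, Atf3, Cebpb, Nupr1 and Fkbp11 are named from this fit after their values were seen.

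Ero1lb was the gene of the 10 with the largest difference between the insulin class and each of the other 3 hormone classes. The glucagon class held 123 and 179 cells in the postpartum libraries, 141 and 23 cells in the pregnant libraries and 94 cells in the non-pregnant library. In the glucagon class Ero1lb had 0 and 103 CPM in the postpartum libraries, 218 and 0 CPM in the pregnant libraries and 81.5 CPM in the non-pregnant library, 23 UMIs in all, beside 2244 UMIs in the insulin class. The 2 zeros stand for up to 236 CPM in postpartum 1 and 2164 CPM in pregnant 2, at 3 counts. The insulin class was 29.3, 5.39 and 10.2 times the glucagon class in postpartum 2, pregnant 1 and the non-pregnant library. Pregnant 2 had under 10 cells in each of the other 2 classes and was not used there. The somatostatin class, of 15 to 39 cells per library, held 2 Ero1lb UMIs in all, and the pancreatic polypeptide class, of 13 to 35 cells, held 4. Limma, with the library as a block, put Ero1lb 4.08 ± 0.59 log2 units higher in the insulin class than in the somatostatin class (adjusted p = 5.61e-09, higher in 4 of 4 libraries), in a comparison that called 43 of 2546 genes (1.69%). Against the pancreatic polypeptide class it was 3.77 ± 0.68 higher (limma, adjusted p = 1.08e-05, 4 of 4 libraries), where 28 of 2433 genes were called (1.15%). In both comparisons the trend over genes set the error, so neither p-value rests on the spread of Ero1lb itself. None of the other 9 genes was called in these 2 comparisons, and the log2 differences of Hsp90b1 (-0.31 ± 0.31) and Pdia3 (-0.45 ± 0.50) against the somatostatin class were below 0. Insulin RNA itself made up 1.44% to 3.23% of UMIs in the glucagon class of the 4 libraries other than pregnant 2, against 29.1% to 60.7% in the insulin class, and how much of the Ero1lb signal outside the insulin class is free RNA was not tested.

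Against the glucagon class all 10 genes were higher in the insulin class on average, with a median log2 difference of 1.19 beside 0.18 for all genes, yet none passed the threshold over 5 libraries, where 12 of 2131 genes were called (0.563%) and 289 had an unadjusted p under 0.05. Ero1lb came nearest, at 3.63 ± 0.55 (limma, adjusted p = 0.0686), higher in 5 of 5 libraries. On the same 5 libraries edgeR called Pdia6 and Ero1lb, among 128 of 2131 genes called. DESeq2 called 2 of the 10 genes, among 140 of 2131. Without pregnant 2, whose glucagon class held 4 UMIs of the 10 genes in 23 cells, limma called 5 of the 10, all higher in the insulin class, in a fit that called 275 of 2396 genes (11.5%). These were Ero1lb (3.31 ± 0.37, adjusted p = 4.17e-05), Pdia6 (1.31 ± 0.21, adjusted p = 0.000996), Hspa5 (0.84 ± 0.16, adjusted p = 0.00274), Sdf2l1 (1.04 ± 0.26, adjusted p = 0.0177) and Dnajc3 (0.94 ± 0.26, adjusted p = 0.0306), each higher in 4 of 4 libraries. The other 5 were not called: Canx (0.66 ± 0.28), Hsp90b1 (0.33 ± 0.18), Calr (0.29 ± 0.17), Pdia3 (0.23 ± 0.19) and Pdia4 (0.04 ± 0.26). In 9 of the 10 genes, Pdia4 being the exception, the insulin class was above the glucagon class in each of these 4 libraries, against 484 of 2396 genes (20.2%).

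Summed over the 10 genes, the insulin class held 21686 and 19232 CPM in the postpartum libraries, 10460 and 19041 CPM in the pregnant libraries and 10771 CPM in the non-pregnant library. The insulin-class sum was 2.04 and 2.27 times the glucagon-class sum in the postpartum libraries, 1.55 times in pregnant 1 and 1.49 times in the non-pregnant library. Against the somatostatin class it was 1.63 and 2.19 times in the postpartum libraries, 0.85 times in pregnant 1 and 1.06 times in the non-pregnant library, so the sign was not the same in every library. The shift was not even across the 10 genes. Hspa5 in the insulin class was 1.86 and 2.19 times the glucagon class in the postpartum libraries, 1.51 times in pregnant 1 and 1.81 times in the non-pregnant library. Pdia6 was 3.66 and 2.51 times in the postpartum libraries, 3.72 times in pregnant 1 and 1.67 times in the non-pregnant library, whereas Hsp90b1 was 1.18 and 1.66 times, 1.33 times and 1.013 times in the same libraries.

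**Figure D4:**
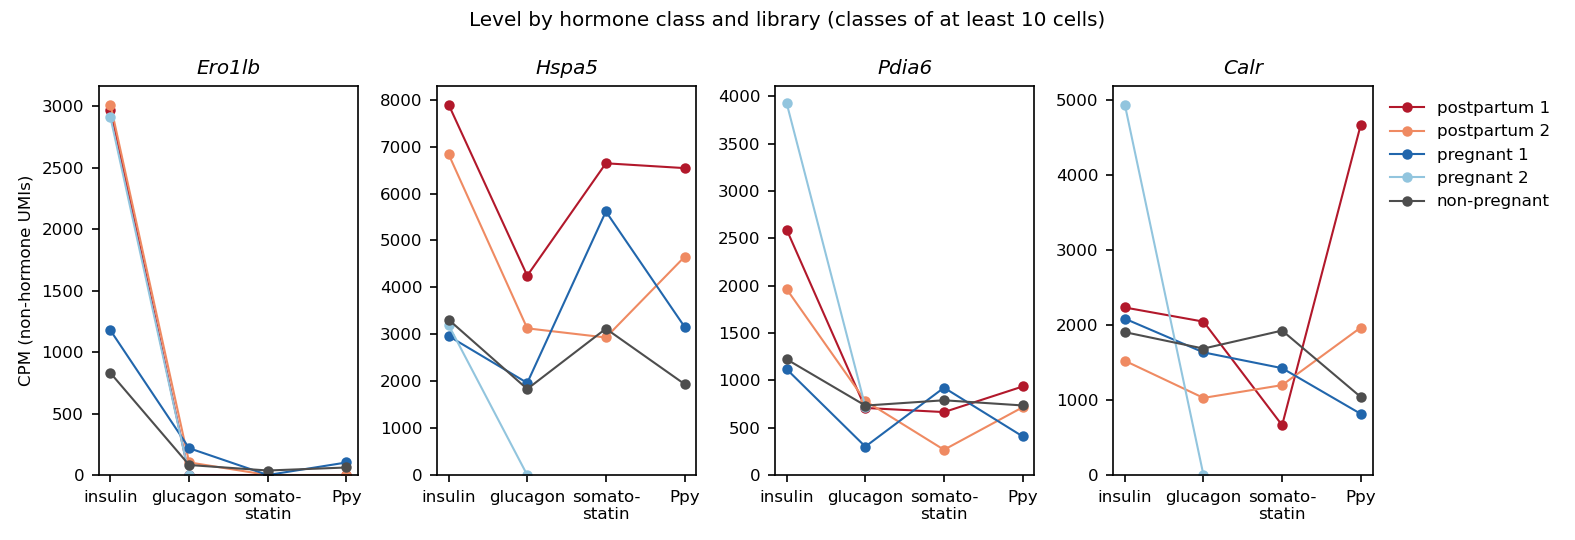
Level of Ero1lb, Hspa5, Pdia6 and Calr in CPM of non-hormone UMIs by hormone class (x axis: insulin, glucagon, somatostatin and pancreatic polypeptide, written Ppy), 1 line per library, for classes of at least 10 cells. Ero1lb drops to 0 to 218 CPM in the glucagon class of every library, while Hspa5 in the somatostatin class of pregnant 1 is above its insulin-class value.

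Other ER genes were also higher in insulin-class than in glucagon-class cells once pregnant 2 was left out. Limma then called 9 of 28 genes of translocation, signal peptidase and glycosylation, 7 of 15 other folding factors, 2 of 11 degradation genes and 2 of 9 stress sensors and factors, all higher, and 0 of 13 cytosolic heat shock genes and 0 of 15 immediate early genes, against 11.5% of all genes. Those called included Sel1l (1.64 ± 0.22), the adaptor of the degradation ligase Syvn1, and Dnajb9 (1.33 ± 0.22), a co-chaperone of Hspa5, both named after their values were seen. The medians of the first 3 lists were 0.57, 0.64 and 0.42, beside 0.08 for all genes. Over all 5 libraries limma called 0 genes of the 6 lists, and the 2 highest and 2 lowest other folding factors were Uggt1 (2.04 ± 0.62), the glycoprotein folding sensor, Dnajb11 (1.56 ± 0.61), Tmx1 (-0.09 ± 0.25) and Txndc5 (-0.30 ± 0.21). In the degradation list they were Derl1 (1.13 ± 0.23), Vcp (0.97 ± 0.52), Syvn1 (0.30 ± 0.21) and Os9 (-0.17 ± 0.40). In the translocation list they were Sec11c (1.88 ± 0.56), a signal peptidase subunit, Dad1 (1.77 ± 0.93), Rpn1 (-0.74 ± 1.05) and Sec62 (-0.80 ± 0.96). In the stress list they were Chac1 (1.04 ± 0.40), Atf4 (0.60 ± 0.27), Atf3 (-0.43 ± 0.25) and Cebpb (-1.18 ± 0.83).

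Within the insulin class the cells of each library were cut into 3 equal parts by their insulin share of UMIs, and Ero1lb differed between the upper and the lower part by 1.47 to 2.24 times in the 4 libraries other than pregnant 2, where the lower part also held less RNA of beta markers and more of other cell types. In the upper part Ero1lb had 3333 and 3891 CPM in the postpartum libraries, 1344 CPM in pregnant 1 and 1000.5 CPM in the non-pregnant library. In the lower part it had 1981 and 1735 CPM in the postpartum libraries, 915 CPM in pregnant 1 and 619 CPM in the non-pregnant library. The upper part was 1.68, 2.24, 1.47 and 1.62 times the lower part in that order, with hormones kept out of the denominator. Pregnant 2 had 0 Ero1lb UMIs in the lower part and 2 in the upper part. Hspa5 moved less, at 1.12 and 1.21 times in the postpartum libraries, 1.03 times in pregnant 1 and 1.12 times in the non-pregnant library. For Hsp90b1 the ratios were 0.863 and 0.903 in the postpartum libraries, 0.915 for pregnant 1 and 1.23 for the non-pregnant library, so the direction differed.

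No gene of all 2160 was called between the upper and the lower part by limma (0%), with 56 at an unadjusted p under 0.05, and so none of the 10, while edgeR called 40 genes but 0 of the 10 and DESeq2 called 24 genes and 1 of the 10. Over 5 libraries Ero1lb was 1.43 ± 0.61 higher in the upper part (limma, adjusted p = 0.746, higher in 5 of 5 libraries), and without pregnant 2 it was 0.74 ± 0.15 higher (limma, adjusted p = 0.125, 4 of 4 libraries). Hspa5, Ero1lb and Calr were higher in the upper part of each of the 4 libraries other than pregnant 2, which is 3 of the 10, against 248 of 2482 genes (9.99%). Summed over the 10 genes the upper part was 1.17 and 1.28 times the lower part in the postpartum libraries, 1.04 times in pregnant 1 and 1.15 times in the non-pregnant library. Taken per UMI of all genes with hormones included, the same sums were 0.816, 0.742, 0.795 and 0.897 times. On that scale Ero1lb was the one gene of the 10 above 1 in each of these 4 libraries, at 1.17 and 1.30 times in the postpartum libraries, 1.12 times in pregnant 1 and 1.27 times in the non-pregnant library.

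Cell type markers moved with the same parts, so the ratios are not shown to be a trend within beta cells. The 7 non-hormone beta markers summed to 7617 and 9183 CPM in the upper part of the postpartum libraries, 7268 CPM in that of pregnant 1 and 4580 CPM in that of the non-pregnant library, against 6705, 4510, 5050 and 3283 CPM in the lower part. RNA of other cells ran the other way in each of these 4 libraries. The 7 alpha markers summed to 1031 and 1262 CPM in the upper part of the postpartum libraries, 1399 CPM in that of pregnant 1 and 1427 CPM in that of the non-pregnant library, against 2895, 5883, 2646 and 2138 CPM in the lower part. The 6 endothelial markers had 0 to 186 CPM in the upper part and 884 to 1901 CPM in the lower part, and the 4 macrophage markers 161 to 317 CPM in the upper part and 505 to 2172 CPM in the lower part. The 1 mesenchymal marker had 35 to 136 CPM in the upper part and 457 to 1267 CPM in the lower part. The 12 acinar genes had 397 and 280 CPM in the upper part of the postpartum libraries, 24.7 CPM in that of pregnant 1 and 224 CPM in that of the non-pregnant library, against 8915, 6562, 31.0 and 1959 CPM in the lower part. Immediate early genes summed to 8649 and 10935 CPM in the upper part of the postpartum libraries, 1689 CPM in that of pregnant 1 and 2127 CPM in that of the non-pregnant library, against 12953, 16291, 2341 and 3144 CPM in the lower part. The part of these cells and genes in the ratios, that of Ero1lb included, was not tested.

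**Figure D5:**
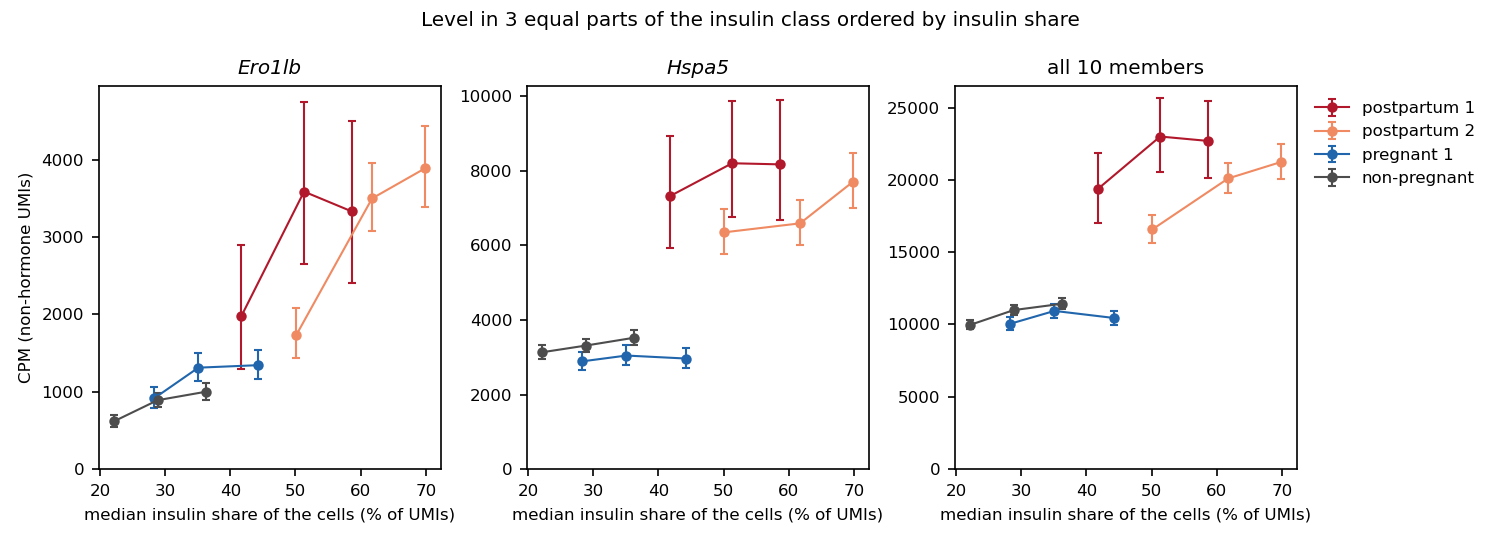
Level of Ero1lb, Hspa5 and all 10 genes summed, in CPM of non-hormone UMIs, in 3 equal parts of the insulin class plotted at the median insulin share of the cells (% of UMIs), 1 line per library without pregnant 2; bars are exact 95% Poisson intervals. Ero1lb is lowest in the lower part of every library drawn, at 619 to 1981 CPM.

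Cells with and without Hspa5 were also compared for the other 9 genes. Insulin-class cells with at least 1 Hspa5 UMI numbered 185 and 545 in the postpartum libraries, 801 for pregnant 1 and 586 for the non-pregnant library, and they were deeper than cells without one, with a median of 102 against 80 non-hormone UMIs in postpartum 1 and 1438.5 against 883.5 in the non-pregnant library. The other 9 genes summed to 1.04 and 1.12 times in the postpartum libraries, 1.13 times in pregnant 1 and 1.40 times in the non-pregnant library, relative to cells without Hspa5. The median gene with at least 20 UMIs had ratios of 1.02, 1.03, 0.997 and 1.02 in that order. Hsp90b1 was above 1 in all 4 libraries, at 1.18, 1.14, 1.28 and 1.41, as were Pdia6 at 1.02, 1.32, 1.24 and 1.72 and Calr at 1.19, 1.14, 1.06 and 1.32. Other ratios went below 1, among them Dnajc3 at 0.68, Ero1lb at 0.81 and Canx at 0.845 in postpartum 1, Pdia4 at 0.63 in postpartum 2 and Pdia3 at 0.939 in pregnant 1. Ratios above 1 numbered 5 of 8 and 8 of 9 in the postpartum libraries, 8 of 9 in pregnant 1 and 9 of 9 in the non-pregnant library, against 52.7%, 54.1%, 49.5% and 52.7% of all genes. These are counts over cells of 1 library with no test, and pregnant 2 had 2 such cells.

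The genes most like the summed 10 across classes and libraries were sought by Pearson r over 18 class and library units, each centred on its library, among 2388 genes. They were Rspo4 (0.906), Amy2a5 (0.906), an acinar amylase, Chgb (0.905), a granin of secretory granules, Hapln4 (0.902) and Degs1 (0.896). The units share libraries and depth, and the order rests on pregnant 2: without it 3 of the 5 fell below the mean of 100 CPM and Chgb and Degs1 had r of 0.742 and 0.774 over 16 units. Without pregnant 2 the leading genes were Spock2 (0.891), Atf5 (0.872), Cyfip2 (0.853), Syndig1l (0.851) and Serpinb6a (0.821), a list made after the first had been seen.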

How the data were processed

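The authors made single-cell inDrop libraries and deposited, per the files' own values, a linear signal for the non-pregnant library (each cell scaled to 1 shared total) and log2 of CPM plus 1 for the other 4. Per the submitters' processing notes the tools were Partek 8.0 and Bowtie 1.1.1 and the builds GRCm38 and mm10; no source used here gives the counter, annotation or filters. Whole UMIs were recovered for 100% of values within 0.1 of a whole number. In pregnant 2 the smallest value of 9 cells is above 1 UMI. The files share 6631 genes (6543 by symbol, 88 by synonym); 50 features were unmatched and 14 date-like symbols were left out. Totals were 134957, 710529, 1136444, 14933 and 2561319 UMIs in postpartum 1, postpartum 2, pregnant 1, pregnant 2 and non-pregnant, in 4687 cells. All cells were kept and doublets were not removed; an alternative kept cells with 80% of the 4 hormones' UMIs from 1 of them. Cell names are running numbers, so shared barcodes could not be counted.

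UMIs were pooled per class and library (at least 10 cells, hormone genes out of the denominator) and log2 of CPM + 100 was tested with limma 3.58.1 (R 4.3.3, trended prior), keeping genes whose mean reached 100 CPM; classes and parts had the library as a block. In the limma state fits, other than that with hormones in the denominator, the prior weight was infinite and the trend over genes set each error. The same held in the main somatostatin and pancreatic polypeptide fits. edgeR 4.0.16 and DESeq2 1.42.0 on recovered UMIs, pseudocounts of 10 and 500, no filter, means over cells, hormones in the denominator, a replicate block and each library left out were alternatives, as were, chosen after seeing the data, cells with at least 20% insulin and leaving out cells with at least 5% acinar RNA. The fitting code was tested on simulated data. Intervals and floors of 3 counts cover counting error only. Members, lists and tests were chosen with earlier results of these data known. All 10 genes are named throughout; from lists, called genes, or the 2 highest and 2 lowest differences, among list genes with at least 50 UMIs, are named for postpartum minus pregnant and insulin minus glucagon.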

Additional observations from a re-analysis of the deposited data

Results flagged for a closer look

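Pdia6 was flagged because its difference over the insulin share was above 0 in both postpartum libraries and below 0 in both pregnant libraries, in pregnant 1 only barely. The upper minus lower part difference of log2(CPM + 100) was 0.32 and 0.44 in the postpartum libraries, against -0.0010 and -3.13 in the pregnant libraries, a gap of 1.95 between the means. The difference between the states was not tested, the first pregnant value is close to 0, and the second rests on the 27 UMIs of pregnant 2. It was 1 of 20 such comparisons looked at.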

How the results depend on the processing

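The number of the 10 genes called between postpartum and pregnant libraries was 0 over all 5 libraries, 1 with no filter on low values, 1 with cells of at least 20% insulin (chosen after seeing the data; pregnant 2 then had 0 Hspa5 UMIs), and 0 to 4 with 1 library left out. For pregnant minus non-pregnant it was 0 to 4 and for postpartum minus non-pregnant 0 to 3 with 1 library left out, the highest without pregnant 1, where the lone pregnant library is pregnant 2 and 1741 genes were called between postpartum and pregnant. In that fit Pdia6 was lower in the postpartum libraries (-0.77 ± 0.36, limma adjusted p = 0.0414), the opposite of its direction over all libraries (0.09 ± 0.70); without pregnant 2 it was 0.95. Against the glucagon class it was 2 by edgeR, 2 by DESeq2, 1 with cells at 80% of 1 hormone, and 0 to 5 with 1 library left out. Against the somatostatin and the pancreatic polypeptide class it was 1 to 2, the higher number without postpartum 1. Between insulin-share parts DESeq2 called 1. Over all genes, calls between postpartum and pregnant were 2, against 64 without pregnant 2. For pregnant minus non-pregnant they were 3, against 1580 without pregnant 1 and 48 without pregnant 2, and for postpartum minus non-pregnant 7, against 159 without pregnant 2 and about as many without pregnant 1. Against the glucagon class they were 12, against 128 by edgeR, 140 by DESeq2, 0 with a pseudocount of 10, 275 without pregnant 2 and 0 without each other library. With no filter they were 384, against 43, for the somatostatin class and 411, against 28, for the pancreatic polypeptide class. Why these counts moved was not tested. With the replicate block 0 of the 10 genes and 1 of all genes were called between postpartum and pregnant. Deviations of same-numbered libraries correlated at 0.011 over 2199 genes. Because pregnant 2 is so shallow, that value cannot tell whether same-numbered libraries were paired, and the labels do not say. Of 148 alternative values of the 10 genes in that comparison 7 had the opposite sign, against 0 of 137 for insulin minus glucagon and 21 of 149 for the insulin-share parts. With 6880 non-hormone UMIs in its insulin class, a gene at 0 UMIs in pregnant 2 may have a level of up to 436 CPM (3 counts). Leaving out the only non-pregnant library gave no value for its comparisons, and pregnant 2 was not in the somatostatin and pancreatic polypeptide fits.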

Other observations

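Sec61a1 and Sec61b, subunits of the Sec61 translocon that admits new chains to the ER, differed in opposite directions in postpartum minus non-pregnant without pregnant 2. Both were picked from the translocation, signal peptidase and glycosylation list after their values were seen. Of the 31 genes of that list tested there, 18 were higher and 13 lower. Their median log2 difference was 0.14, beside -0.005 for all genes. Sec61a1, the channel subunit, had a mean of 41.0 CPM (12 UMIs) in the postpartum insulin classes and 715 CPM (779 UMIs) in the non-pregnant one. The log2 difference was -2.54 ± 0.47. Sec61b was 1.88 ± 0.42 higher in the postpartum libraries (limma, adjusted p = 0.0003). In pregnant 1 minus the non-pregnant library Sec61a1 was likewise lower, at -2.50 ± 0.54 (limma, adjusted p = 0.000393). State and file cannot be told apart in these comparisons.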
